A study of Mus musculus with 9 samples.

Results

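The JAK kinases and STAT factors form the route by which cytokine and interferon receptors reach the nucleus. Ribosome occupancy of 9 of these genes, 5 STAT factors (Stat2, Stat3, Stat5a, Stat5b and Stat6) and the 4 JAK kinases (Jak1, Jak2, Jak3 and Tyk2), was followed across 3 macrophage lines that differed in the form of TTP they expressed. The genes were chosen by name from 16921 genes. All 9 had a mean of at least 10 normalized footprint reads, as did 10103 genes in all.

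Footprints are the pieces of mRNA covered by ribosomes, so that RiboSeq counts reads on the translated part of each transcript. The cells were bone marrow-derived macrophages that lack TTP (gene Zfp36), a protein that binds AU-rich elements in 3′UTRs and directs the mRNAs to decay. They had been immortalized with human c-Myc and H-Ras G12V, selected for CD11b and F4/80, and transduced with a doxycycline-inducible vector for GFP, for GFP-TTP, or for GFP-TTP-AA, in which the serines phosphorylated by the kinase MK2 are exchanged (S52A and S178A). All 3 lines received doxycycline at 1 µg/ml for 6 h and LPS at 1 µg/ml for 1 h. There were 3 libraries per line and 9 in all. Each form of TTP was present in 1 transduced line, so that an effect of the protein and a difference between lines cannot be told apart. No library without LPS was analysed here, and the genes' response to LPS is not part of the comparisons.

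When a cytokine binds, receptor chains bring JAK kinases together. The kinases phosphorylate each other and the receptor, and STAT factors dock on the receptor, are phosphorylated, pair up and enter the nucleus. In macrophages LPS starts this route indirectly, through secreted interferon-β and interleukin-10. Jak1 and Tyk2 serve interferon and interleukin-10 receptors, Jak2 serves the receptors for interferon-γ, GM-CSF and interleukin-3, and Jak3 works with the common γ chain. Stat2 joins IRF9 in the complex that switches on interferon-stimulated genes, Stat3 acts below interleukin-6 and interleukin-10, Stat5a and Stat5b act below GM-CSF, and Stat6 acts below interleukin-4 and interleukin-13.

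The values were not read counts. For every gene, the table held the mean fitted by a model with a term for condition and a term for replicate, so that the 3 libraries of a line differed only by a replicate term that was the same in all 3 lines. Division by the library's size factor, which stands for its depth, gave the values used here, called normalized reads. The order of the 3 libraries within a line, and whether the libraries of 2 lines overlap, therefore carry no information on replicate error. That error enters only through the standard error (SE) that came with each comparison. Size factors ranged from 0.415 to 2.14, and a library's fitted values added up to 2570292 at the lowest and 12804501 at the highest. Zfp36 was at 459 normalized reads in the GFP line, 928 in the GFP-TTP line and 1532 in the GFP-TTP-AA line. The 2 TTP lines differed by 0.72 on the log2 scale (SE 0.25, adjusted p = 0.041, Wald test). Their Zfp36 footprints were thus not at an equal level. At the level of protein, the paper describes similar expression of the wild-type and mutant fusions by western blot, before and after LPS. The GFP line carried no TTP vector, and what its Zfp36 reads stand for was not tested. Reads from the cell's own gene and from the vector were not separated, and protein was not measured here. Of 9 macrophage markers 8 were in the table and 7 had a mean of at least 10, among them Csf1r, Cd68, Lyz2 and Itgam. The 8 summed to 92528, 73876 and 103747 normalized reads in the GFP, GFP-TTP and GFP-TTP-AA lines, of which Lyz2 alone gave 64110, 46040 and 71250. Mertk was near 5 in every line and Adgre1, which encodes F4/80, was not matched in the table. Of the listed markers, 2 of 5 for T cells, 2 of 4 for B cells and 2 of 3 for dendritic cells were matched. For fibroblasts 3 of 4 were matched, and for mast cells 0 of 3. The matched ones summed to at most 3.71 in any of these lists. The neutrophil list, with 2 of 5 matched, was at 27.2, 25.7 and 55.9, nearly all of it S100a8. Markers that were not matched say nothing on the presence of their cell types. Footprints on a gene can change through the amount of its mRNA or through its translation, which RiboSeq alone does not separate, and in bulk cultures fewer expressing cells and less RNA per cell cannot be told apart.

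Because TTP acts through AU-rich elements, the 3′UTRs of the 9 genes were searched for ATTTA, the core of such an element, and for TATTTAT, the 7-base form that contains ATTTA. The search covered the mRNA strand of the GENCODE transcript with the longest 3′UTR of each gene. Jak1 held 4 copies of ATTTA in 1128 bases, Stat5b 3 in 2365, Jak2 2 in 1232, Stat3 2 in 3701, and Stat5a and Tyk2 1 each in 1173 and 980 bases. Stat2, Stat6 and Jak3 held none in 1476, 976 and 419 bases. TATTTAT occurred 1 time in Jak2 and 1 time in Stat5b. ATTTA was thus present in 6 of 9 members and TATTTAT in 2 of 9, against 71.5% and 30.6% of the 9943 kept genes with an annotated 3′UTR. The stretches below show both TATTTAT copies and the other copy of Jak2, the called gene with such an element. Letters are those of the mRNA strand of GRCm38, 5′ to 3′, with the motif in capitals.
Jak2, TATTTAT, position 1206 of the 3′UTR, chr19:29313045-29313069, plus strand: tttgtgtgtTATTTATacaagattt
Jak2, ATTTA, position 395, chr19:29312233-29312257, plus strand: ctcttgtgtgATTTAcatgagggct
Stat5b, TATTTAT, position 1560, chr11:100781521-100781545, minus strand: gtagtaaatTATTTATtgggagatg
The Jak2 copy of TATTTAT lies near the end of its 3′UTR of 1232 bases. A match to these letters is a description of the sequence and not a site of binding.

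The 9 genes fell into an abundant and a sparse group (plot of levels per coding length). To compare genes, normalized reads were divided by the length of the coding sequence. Stat3 led with a mean of 378 normalized reads per kb of coding sequence over the 9 libraries (range 330 to 423), followed by Stat6 with 352 (284 to 439) and Jak1 with 274 (238 to 316). The ranges of these 3 neighbours overlapped. They stood above the median kept gene, which had 147 per kb, at percentiles 72.8, 71.4 and 65.9 of 9971 genes. The other 6 genes were below that median. Stat5a followed with 45.4 per kb (34.2 to 55.6), Stat5b with 38.6 (30.3 to 45.8) and Tyk2 with 37.2 (34.9 to 38.8), again with overlapping ranges. Jak3 had 23.3 per kb (18.6 to 26.5), Jak2 22.5 (15.0 to 38.8) and Stat2, the interferon partner of IRF9, was the sparsest of the 9 at 15.6 (12.2 to 19.0), at percentile 7.19. The ranges of neighbours in this order overlapped except between Jak1 and Stat5a and between Tyk2 and Jak3. These ranges span the fitted condition and replicate terms and are not a measure of replicate error. Among the kinases Jak1 was thus the most occupied and the other 3 lay at percentiles 11.3 to 18.7. The place of Jak2 moved with the line, which lay below Jak3 in the GFP-TTP line, at 17.7 against 21.2 per kb, and above it in the GFP-TTP-AA line, at 28.2 against 23.6.

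**Figure D1:**
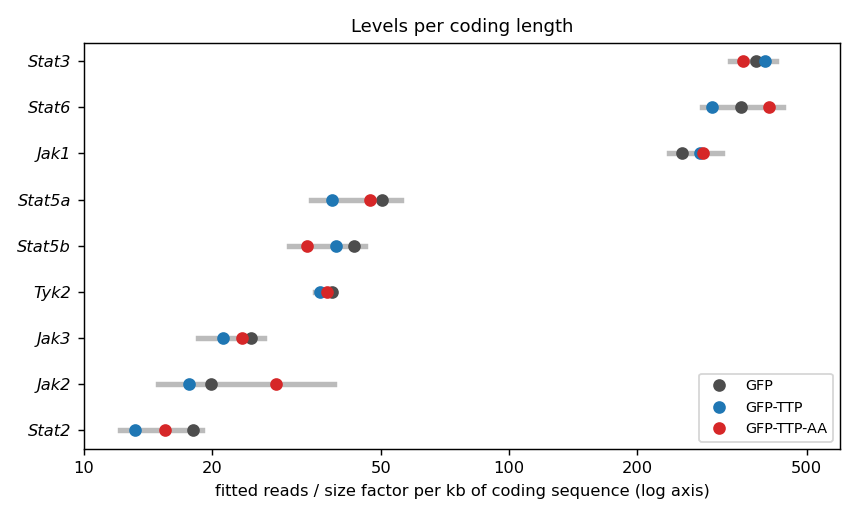
Normalized footprint reads per kb of coding sequence (log axis) for the 9 JAK and STAT genes. Points are the levels of the 3 lines and grey bars span the 9 libraries. Stat3, Stat6 and Jak1 lie between 238 and 439 per kb and the other 6 genes below 56.

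Stat5a and Stat5b are neighbouring genes on chromosome 11 (GRCm38 chr11:100859351-100885169, plus strand, and chr11:100780731-100850724, minus strand) and encode closely related proteins. Of all 28-base windows in the coding sequence, about the length of a footprint, 37.2% of those in Stat5a also occurred in Stat5b and 37.9% of those in Stat5b in Stat5a. Reads with up to 2 alignments were retained in mapping, and the paper's methods do not say whether such reads were then counted. Footprints from the common windows may thus be shared by the 2 genes or missing from both, and the values of this pair are uncertain. No other member shared a coding window with an annotated transcript of another gene. Stat5a and Stat3 also overlap by 72 bases at their 3′ ends on opposite strands, and whether strand was used in counting is not given in the sources used here.

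The question put by the design was whether TTP, and TTP that cannot be phosphorylated, change the occupancy of mRNAs. Of the 9 genes 2 passed the test, both in the comparison of the 2 TTP forms, where 10.3% of all genes passed (5.53% higher), and both higher with GFP-TTP-AA: Jak2 by 1.6-fold and Stat6 by 1.36-fold. These folds are shrunken by the model that gave the values. By an estimate from the standard errors, the 0.68 of Jak2 on the log2 scale would be 0.97 or 2.26 without shrinkage. The 0.44 of Stat6 would be 0.49 or 4.74. The standard error of a single gene does not tell which of the 2 solutions holds. Over the 9 genes, however, the SE fell as the level rose, from 0.24 for Stat2 to 0.13 for Jak1. That order goes with the smaller solutions, 0.97 and 0.49, because under the larger ones sparser genes would have the smaller SE. No STAT factor or kinase passed the test between either TTP line and the GFP line. The test divided each log2 fold change by its SE (Wald test, two-sided), with Benjamini-Hochberg adjustment over all kept genes of the comparison and a threshold of 0.05 on the adjusted p.

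**Figure D2:**
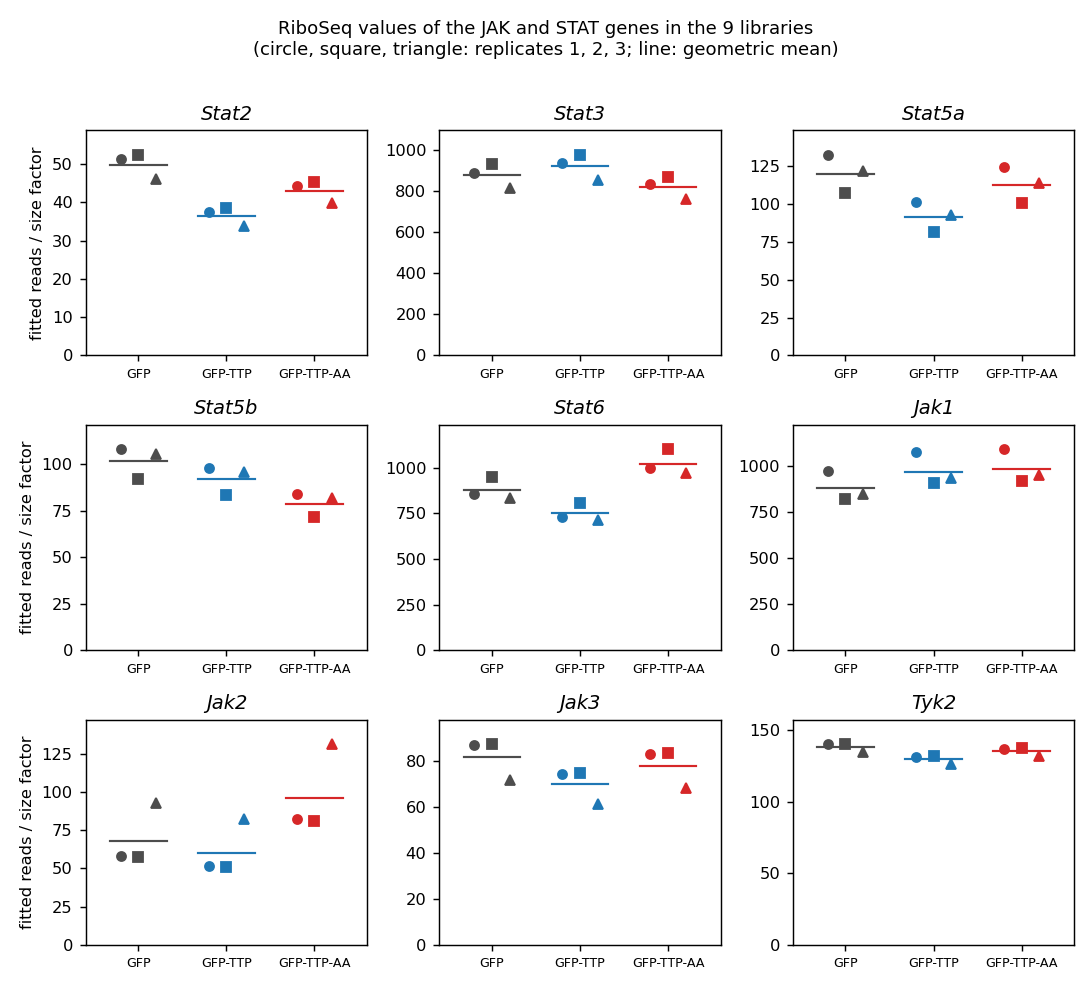
Normalized footprint reads (vertical axes from 0) of the 9 genes in the 9 libraries, with symbols for replicates 1, 2 and 3 and a line at the geometric mean of each line. Within a gene the 3 replicates keep the same pattern in all lines because the values are fitted, and Jak2 is the gene with the widest replicate pattern, replicate 3 being highest.

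Jak2, the kinase on the receptors for interferon-γ and GM-CSF (chr19:29251828-29313080, plus strand), had 58.3, 57.4 and 93.1 normalized reads in replicates 1, 2 and 3 of the GFP line. In the GFP-TTP line it had 51.6, 50.8 and 82.3, and in the GFP-TTP-AA line 82.5, 81.2 and 132. Replicate 3 was highest in every line, an order that the fitted values repeat by construction. The libraries of the 3 lines overlapped, which for fitted values says nothing on replicate error. The GFP-TTP-AA line exceeded the GFP-TTP line by 0.68 on the log2 scale (SE 0.23, 95% interval 0.23 to 1.13, adjusted p = 0.035, Wald test), with levels of 95.9 and 60.0. Of the genes tested, 3.14% had a larger positive log2 fold change. Against the GFP line, with a level of 67.8, the log2 fold change of the GFP-TTP-AA line was 0.50 (SE 0.23, adjusted p = 0.26, Wald test) and that of the GFP-TTP line was −0.18 (SE 0.23, adjusted p = 0.85). Neither passed the threshold.

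The replicate term of Jak2 was as wide as its difference between lines. Its log2 level in replicate 3 lay 0.69 above the mean of replicates 1 and 2, while over all kept genes this difference had a median of −0.00 and an SD of 0.28, and 1.39% of kept genes exceeded Jak2. For the other 8 members the replicate terms spanned 0.06 (Tyk2) to 0.31 (Stat5a) on the log2 scale, against 0.70 for Jak2. The replicate term is the same in the 3 lines and drops out of the fold change, and what it stands for was not tested.

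Stat6, the factor of interleukin-4 and interleukin-13 signalling (chr10:127642986-127660957, plus strand), had 858, 948 and 835 normalized reads in the GFP line. It had 732, 809 and 713 in the GFP-TTP line and 997, 1102 and 971 in the GFP-TTP-AA line. The GFP-TTP-AA line was highest and the GFP-TTP line lowest, an order that the fitted values repeat in every replicate by construction. The log2 fold change of GFP-TTP-AA against GFP-TTP was 0.44 (SE 0.15, 95% interval 0.16 to 0.73, adjusted p = 0.028, Wald test), with levels of 1022 and 751. The GFP line, at 879, lay between them, and the log2 fold changes from it were −0.23 for GFP-TTP and 0.22 for GFP-TTP-AA (SE 0.15 each, adjusted p = 0.60 and 0.54, Wald test). The 3′UTR of Stat6 held no ATTTA, whereas that of Jak2 held 2.

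Neither call held under every way of processing. Genes near Stat6 were also higher: of the 60 kept genes within 5 Mb on either side, 43 had a positive log2 fold change between the 2 TTP lines and the median was 0.19, and the median of the 482 genes of chromosome 10 was 0.17. Of the 60 genes 7 passed the threshold (11.7%), near the 10.3% of all genes. With the chromosome median subtracted Stat6 stood at 0.28 (adjusted p = 0.27), and with the 5 Mb median subtracted at 0.25 (adjusted p = 0.30), past the threshold in neither case. Chromosome medians were subtracted from every gene before adjustment, the 5 Mb median only from the member under test, so that the 2 adjusted p-values are not alike. The same neighbourhood had a median of −0.26 between the GFP-TTP and GFP lines, with 7 of 60 genes positive. Jak2 moved against its surroundings. The median of the 364 genes of chromosome 19 was −0.09 between the TTP lines and that of the 31 genes within 5 Mb, of which 6 passed the threshold (19.4%), was −0.08, so that Jak2 stood at 0.77 and 0.76 after subtraction (adjusted p = 0.014 for each). When p-values were adjusted over the 3 comparisons together, however, Stat6 passed with an adjusted p of 0.048 and Jak2 did not, at 0.059. Across all 7 settings the adjusted p ranged from 0.014 to 0.059 for Jak2 and from 0.026 to 0.30 for Stat6. Why genes of a chromosome move together in these lines was not tested.

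**Figure D3:**
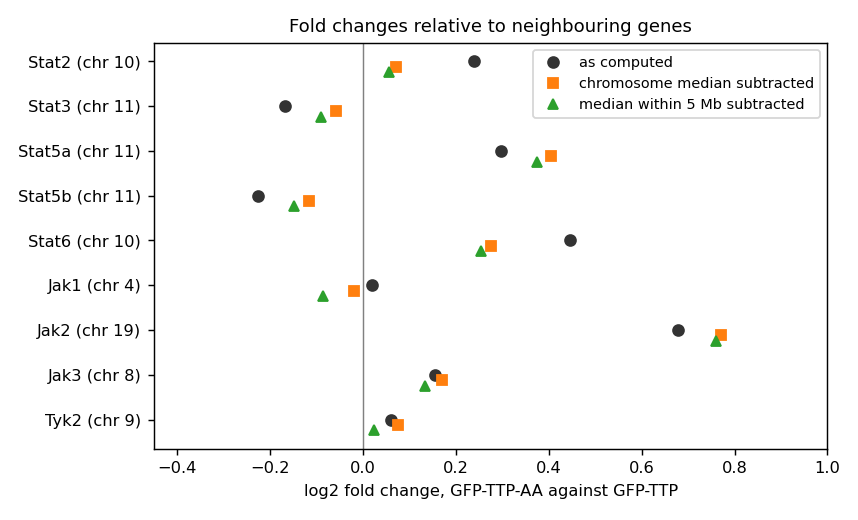
Log2 fold change of the 9 genes between the GFP-TTP-AA and GFP-TTP lines (horizontal axis), as computed, after subtraction of the chromosome's median and after subtraction of the median within 5 Mb. Stat6 falls from 0.44 to 0.28 and 0.25, whereas Jak2 goes from 0.68 to 0.77 and 0.76.

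For the pair of TTP lines, 2 of 9 genes called is to be read against 10.3% of the 10103 genes tested (5.53% higher and 4.75% lower), and the same 2 members had an unadjusted p under 0.05, against 22.1% of all genes. The 9 genes had a median of 0.15 on the log2 scale, with 7 positive and 2 negative, against 0.00 for all genes (SD 0.35), and their median size regardless of sign was 0.23 against 0.19. For GFP-TTP against GFP, 0 of 9 genes were called at a background of 2.09% of 9938 (0.805% higher and 1.29% lower), and at an unadjusted p under 0.05 again 0 members against 11.3% of all genes. Their median was −0.18 with 7 of 9 negative. For GFP-TTP-AA against GFP, 0 of 9 were called at a background of 3.05% of 10103 (1.71% higher and 1.34% lower), and Jak2 alone, 1 of 9, had an unadjusted p under 0.05, as did 14.2% of all genes. Here the median was −0.07 with 6 of 9 negative. The 3 comparisons share lines, and their values for one gene are not independent. The SE of the 9 genes lay between 0.13 for Jak1 and 0.24 for Stat2, so that the sparser genes had the wider error.

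**Figure D4:**
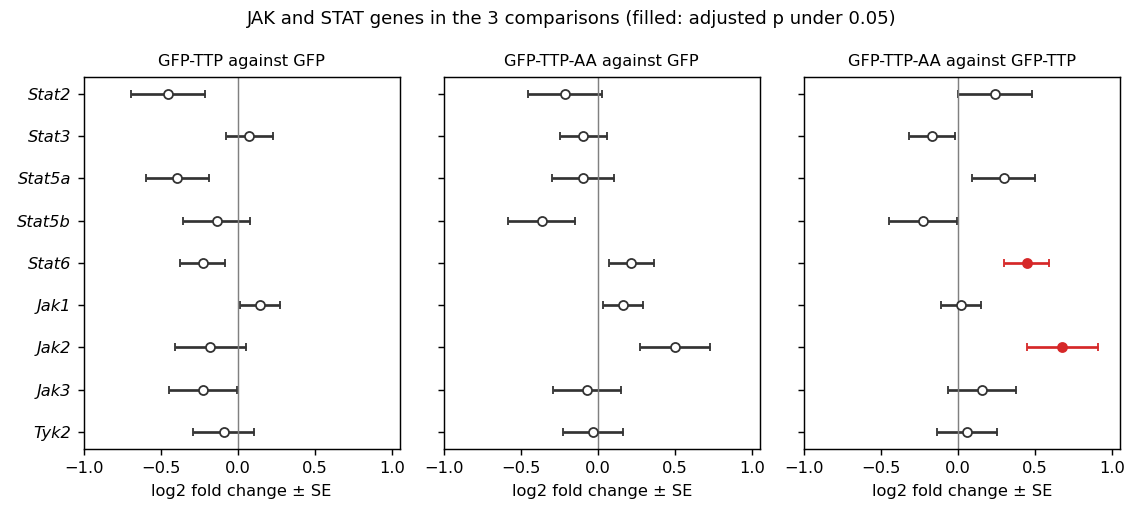
Log2 fold change (point) and its SE (bar) of the 9 genes in the 3 comparisons, with filled points for an adjusted p under 0.05. The filled points are Stat6 at 0.44 and Jak2 at 0.68 between the GFP-TTP-AA and GFP-TTP lines.

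Among the STAT factors that passed no test, Stat2 (chr10:128270559-128292849, plus strand) had the largest difference from the GFP line. It had 51.3, 52.5 and 46.1 normalized reads in the GFP line, 37.5, 38.4 and 33.7 in the GFP-TTP line, and 44.3, 45.3 and 39.8 in the GFP-TTP-AA line. Its log2 fold change of GFP-TTP against GFP was −0.45 (SE 0.24, 95% interval −0.92 to 0.02, adjusted p = 0.48, Wald test), and that of GFP-TTP-AA against GFP-TTP was 0.24 (adjusted p = 0.62). Stat2 lies near Stat6 on chromosome 10, where the 57 kept genes within 5 Mb had medians of −0.24 and 0.18 in these comparisons, and relative to them it stood at −0.21 and 0.06.

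Stat5a and Stat5b differed in the order of the lines. Stat5a had 133, 107 and 122 normalized reads in the GFP line, 101, 81.9 and 92.9 in the GFP-TTP line and 124, 101 and 114 in the GFP-TTP-AA line, and was lowest with GFP-TTP. Stat5b had 108, 92.0 and 105 in the GFP line, 98.2, 83.6 and 95.7 in the GFP-TTP line and 83.9, 71.4 and 81.8 in the GFP-TTP-AA line, and was lowest with GFP-TTP-AA. Their log2 fold changes between the TTP lines were 0.30 and −0.23 (SE 0.20 and 0.22, adjusted p = 0.41 and 0.60, Wald test). Against the GFP line Stat5a had −0.39 with GFP-TTP (adjusted p = 0.46) and Stat5b −0.36 with GFP-TTP-AA (adjusted p = 0.48). These orders were not beyond the error, and the difference between the paralogs was not tested.

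Stat3 (chr11:100885098-100939540, minus strand), the factor below interleukin-10, had 889, 929 and 813 normalized reads in the GFP line, 935, 977 and 855 in the GFP-TTP line and 832, 869 and 761 in the GFP-TTP-AA line. It was the most occupied of the STAT factors in the GFP and GFP-TTP lines, and Stat6 exceeded it in the GFP-TTP-AA line, at 407 against 355 per kb of coding sequence. Its log2 fold changes were 0.07, −0.10 and −0.17 for GFP-TTP against GFP, GFP-TTP-AA against GFP and GFP-TTP-AA against GFP-TTP (SE 0.15 for each, adjusted p = 0.92, 0.88 and 0.56, Wald test).

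The kinases other than Jak2 passed no test. Jak1 (chr4:101152367-101265282, minus strand) pairs with each of the other kinases on at least some of their receptors. It had 976, 822 and 849 normalized reads in the GFP line and 1078, 908 and 938 in the GFP-TTP line. In the GFP-TTP-AA line it had 1094, 921 and 951. Between the TTP lines its log2 fold change was 0.02 (SE 0.13, 95% interval −0.24 to 0.28, adjusted p = 0.95, Wald test). This is the narrowest interval among the members. Jak3 (chr8:71676296-71690575, plus strand), the kinase of the common γ chain, had 87.2, 87.6 and 71.6 in the GFP line, 74.6, 74.9 and 61.3 in the GFP-TTP line and 83.0, 83.4 and 68.2 in the GFP-TTP-AA line. Its log2 fold changes were −0.22, −0.07 and 0.15 in the same order of comparisons, with adjusted p of 0.78, 0.96 and 0.75 (Wald test). Tyk2 (chr9:21104068-21131243, minus strand), which sits on the interferon-α/β and interleukin-10 receptors, moved least over the 9 libraries, from 127 to 140.4 normalized reads. It had log2 fold changes of −0.09, −0.03 and 0.06 with adjusted p of 0.92, 0.98 and 0.90 (Wald test).

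The genes whose levels ran most like those of the 2 called members were sought among 8439 other genes, by the Euclidean distance of centred log2 levels over the 9 libraries. For Jak2 they were Irg1, the enzyme that makes itaconate, at a distance of 0.14, and Tnfrsf1b, a receptor for TNF, at 0.19, where the profile of Jak2 itself has a length of 1.30. For Stat6 they were Rpp25l at 0.09 and Fxyd5 at 0.12, where the profile of Stat6 has a length of 0.59. Between the TTP lines these 4 genes had log2 fold changes of 0.61, 0.56, 0.46 and 0.36 with adjusted p of 0.086, 0.14, 0.13 and 0.16 (Wald test), past the threshold in no case. Distances over 9 fitted libraries rest on 2 free condition differences and 2 replicate differences. In Jak2 the replicate terms spanned 0.70 on the log2 scale and the levels of the lines 0.68, so that both weigh in its distances.

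Between the 2 TTP lines, changes past the threshold were found at the other steps of the pathway, from ligands to the listed targets of STAT2, STAT3 and STAT5. Of the STAT6 targets only 1 could be tested, and it did not pass. Ligands and cofactors gave 2 calls each from 8 genes. In the comparisons with the GFP line no cofactor and no STAT3 target passed. Of 95 listed receptors, ligands, inhibitors, cofactors and targets found in the table, 74 were tested between the TTP lines and 26 passed (35.1%), 20 higher and 6 lower with GFP-TTP-AA, with a median of 0.25. Between the GFP-TTP and GFP lines 5 of 72 passed (6.94%), all lower with GFP-TTP, and between the GFP-TTP-AA and GFP lines 6 of 74 (8.11%), 4 higher and 2 lower. The shares of all genes called are those given above, but the lists were chosen with earlier results of these data known, so that their shares are a description and cannot be set against them. A gene that stands in 2 lists was counted 1 time here. With chromosome medians subtracted, a setting added after seeing the data, 21 of the 74 passed between the TTP lines, 19 of them among the 26.

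**Figure D5:**
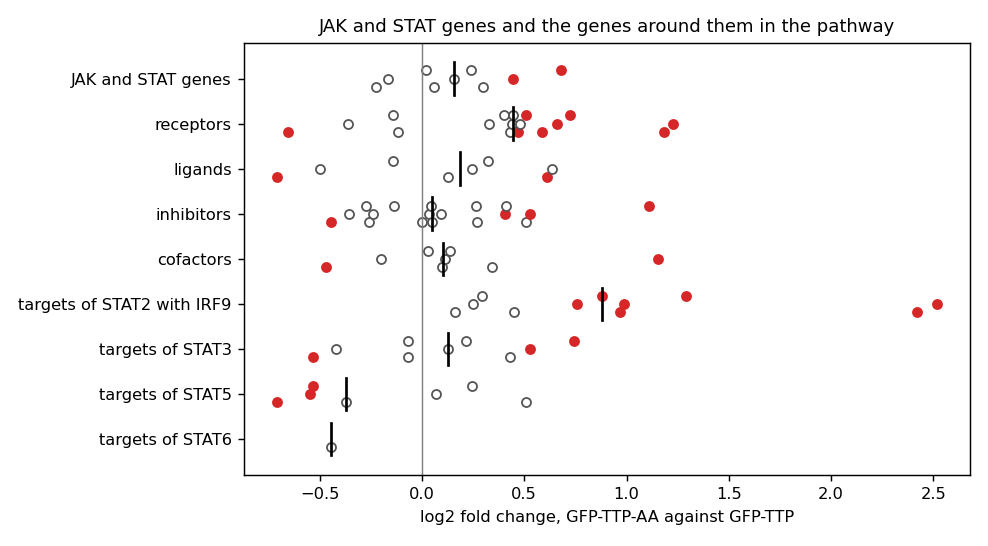
Log2 fold change between the GFP-TTP-AA and GFP-TTP lines (horizontal axis) for the 9 JAK and STAT genes and for the pathway lists, each point a gene, filled for an adjusted p under 0.05, with a bar at the median of each list. All 11 genes of the STAT2 and IRF9 targets lie above 0, with a median of 0.88, and the STAT5 targets have a median of −0.37.

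Receptor chains, on which the kinases sit, made up 8 of the 26 calls between the TTP lines, from 17 tested. Higher with GFP-TTP-AA were 7 of them, among them Il10ra, the chain that binds interleukin-10, by 1.23 on the log2 scale (189.7 normalized reads against 81.1, adjusted p = 5.5e-06, Wald test), its partner Il10rb by 0.66, Il7r by 1.18, the interferon-α/β receptor chain Ifnar1 by 0.72 and the common γ chain Il2rg by 0.58. Il13ra1, a chain of the interleukin-13 receptor and thus upstream of Stat6, was lower (−0.65, adjusted p = 0.048). Il4ra, the interleukin-4 receptor chain and also upstream of Stat6, went the other way without passing (0.43, adjusted p = 0.18, Wald test). Il10ra was also lower with GFP-TTP than with GFP (−0.85, adjusted p = 0.015), and Ifnar1 and Il2rg were higher with GFP-TTP-AA than with GFP (0.56 and 0.60, adjusted p = 0.023 and 0.028). The median over the receptors was 0.45 between the TTP lines. Of the 7 higher receptors Ifnar1, Ifnar2 and Il10rb lie on chromosome 16, where the median over 324 genes was 0.16. With chromosome medians subtracted Ifnar1 still passed (0.57, adjusted p = 0.0085), whereas Ifnar2 (0.31, adjusted p = 0.21) and Il10rb (0.50, adjusted p = 0.051) did not, nor did Il13ra1 (−0.65, adjusted p = 0.055). Between the GFP-TTP-AA and GFP lines Ifnar1 then lost its call as well (0.43, adjusted p = 0.14).

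Of 8 ligands tested between the TTP lines, Ebi3, a subunit of interleukin-27, was higher with GFP-TTP-AA (0.61, adjusted p = 0.042) and Osm, oncostatin M, was lower (−0.71, adjusted p = 0.021, Wald test). Between the GFP-TTP-AA and GFP lines Osm was also lower in the former (−1.23, adjusted p = 1.1e-05, Wald test). So was Il23a, a subunit of interleukin-23 (−1.04, adjusted p = 0.0015). Il23a was sparse, at 8.21 normalized reads with GFP-TTP-AA and 16.9 with GFP, near the minimum mean of 10. Of 18 inhibitors, 4 passed between the TTP lines. Higher with GFP-TTP-AA were Usp18, which blocks the interferon-α/β receptor, by 1.11 (adjusted p = 0.00022), Socs3, which blocks Jak1, Jak2 and Tyk2, by 0.53 (adjusted p = 0.031), and the phosphatase Ptpn6 by 0.41 (adjusted p = 0.038), while Ptprc, which encodes the phosphatase CD45, was lower (−0.44, adjusted p = 0.019, Wald test). Usp18 was also lower with GFP-TTP than with GFP (−1.43, adjusted p = 1.1e-06). The median over the 18 inhibitors was 0.05. Between the TTP lines Osm (−0.60, adjusted p = 0.071) and Ptpn6 (0.36, adjusted p = 0.079) no longer passed with chromosome medians subtracted.

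Stat2 itself did not pass the test, but its partner and their targets did between the TTP lines. Irf9 had 68.8 normalized reads with GFP-TTP-AA and 30.9 with GFP-TTP, a log2 fold change of 1.16 (SE 0.25, adjusted p = 0.00016, Wald test), where Stat2 had 0.24 (SE 0.24). Whether the changes of Irf9 and Stat2 differ was not tested. Of 11 tested targets of the complex, 7 passed and all were higher, led by Oasl1 by 2.52 (149 against 25.9 normalized reads, adjusted p = 1.8e-24), Ifih1 by 2.42, Ddx58 by 1.29 and Rsad2 by 0.99. Ifih1, Ddx58 and Oasl1 were also lower with GFP-TTP than with GFP (−1.34, −1.26 and −1.22), and Oasl1 and Ifih1 were higher with GFP-TTP-AA than with GFP (1.30 and 1.08). The other cofactor called was Ep300, an acetyltransferase, which was lower (−0.47, adjusted p = 0.025), and not past the threshold with chromosome medians subtracted (adjusted p = 0.099). All 7 targets called between the TTP lines passed in that setting too.

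Listed targets of STAT3 were called in both directions and those of STAT5 in 1. Of 9 STAT3 targets 3 passed between the TTP lines, Bcl3 (0.74, adjusted p = 0.026) and Socs3 higher and Bcl2l1, an inhibitor of apoptosis, lower (−0.53, adjusted p = 0.021, Wald test). Of 7 STAT5 targets 3 passed and all were lower with GFP-TTP-AA, namely Osm, Ccnd1, which encodes cyclin D1 (−0.55, adjusted p = 0.039), and Bcl2l1. Osm and Bcl2l1 stand in other lists too, and with chromosome medians subtracted neither passed (adjusted p = 0.071 and 0.056), which left Ccnd1 as 1 of 7. Of 10 STAT6 targets 7 were matched by name, of which only Mrc1, the mannose receptor, reached the level needed for a test. Its log2 fold change of −0.44 between the TTP lines did not pass, while Stat6 itself was higher. Target lists of this kind name genes that respond to several factors, and the activity of a STAT factor was not measured.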

How the data were processed

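RiboSeq of 9 libraries was used, with lines and replicates taken from the sample labels. The authors isolated ribosome-protected fragments (ARTseq kit, Ribo-Zero Gold), sequenced 50 bp single ends, mapped them to mm10 (GRCm38) with up to 2 alignments per read and ran DESeq2 with terms for library date and condition. Per the labels, Trim Galore, TopHat2 2.0.12, HTSeq and DESeq2 1.6.3 were used, and the paper's methods name another TopHat version. The deposited table named as normalized counts holds a signal, the fitted mean of each gene and library with the size factor included: after terms for library, condition and replicate, log2 values with an SD of 4.79 left a residual SD of 1.6e-15. From the deposited comparison tables, the log2 standard errors (of fold changes shrunken by the authors' model) were used for the test, and the mean signal was read only for reference. Their fold changes, Wald statistics, p-values and adjusted p-values were neither used nor printed.

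Size factors were recovered from the 3632 genes with a fitted mean under 0.5, on which condition and replicate terms are negligible. Log2 fold changes are differences of mean log2 levels of 2 lines, without pseudocount, and are shrunken. By an estimate from the standard errors, Jak2 kept 29.9% or 70.1% of the unshrunken change, both being solutions. The fall of the SE with rising level over the members goes with 70.1%. Genes with a mean of at least 10 normalized reads were tested, 10103 of 16921, of which 165 had no standard error for GFP-TTP against GFP. The fold change over its standard error gave a two-sided normal p, adjusted by Benjamini-Hochberg. The script was tested on simulated data. The replicates are described as biological, without further detail.

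Gene positions and coding lengths come from GENCODE vM21, and printed sites equal the RefSeq GRCm38 genome. The members, lists and tests were chosen with earlier results of these data known. Named were all members, up to 5 called genes with the largest change per list and comparison, Zfp36, macrophage markers, and the 2 genes with a mean of at least 50 nearest to each called member. Il4ra was named in addition, beside Il13ra1, and Oasl2 for its low level. Listed gene names were matched as spelled. Software was Python 3.11.15, pandas 2.3.3 and scipy 1.17.1. RNASeq and iCLIP were not analysed here. Some sequence is not reported here.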

Additional observations from a re-analysis of the deposited data

How the results depend on the processing

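No paired analysis was possible because the values carry no replicate spread of their own. The fold changes and standard errors used already come from a model with the replicate as a block, and neither a fit without that block nor one that leaves out a replicate could be run. The count of called members stayed 0 for GFP-TTP against GFP and for GFP-TTP-AA against GFP under every other alternative. For GFP-TTP-AA against GFP-TTP it was 2 without a filter, with a minimum mean of 50 (which leaves 8 members) and with size factors by the median of ratios. It was 1 with chromosome medians subtracted (Jak2), 1 with adjustment over the 3 comparisons together (Stat6), and 1 with the median within 5 Mb subtracted (Jak2), a setting chosen after seeing the data. Of 27 log2 fold changes, all 27 kept their direction with a pseudocount of 1, a pseudocount of 10 and the other size factors. With chromosome medians subtracted 25 kept direction and side, Stat6 between the TTP lines lost its call (0.28, adjusted p = 0.27), and Jak1 between the TTP lines turned from 0.02 to −0.019, neither beyond its error. With the 5 Mb median Stat6 for GFP-TTP against GFP went from −0.23 to 0.04. Of the 26 pathway genes called between the TTP lines, 19 remained with chromosome medians subtracted and 2 others were added. Called genes over all genes ranged from 165 to 270, 257 to 378 and 845 to 1077 in the 3 comparisons. Depth acts here only through the standard errors.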
